A study of Mus musculus with 4 samples.

Results

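*Ccr7*, *S1pr1*, *S1pr4*, *Ccr9*, *Klf2* and *Klf3* are genes of the traffic of lymphocytes between blood, lymphoid organs and gut, and they are described here in T and B cells of the blood of tumour-bearing mice. They were named as a list of symbols and are 6 of the 27998 genes in the deposited table, in which each symbol stands once. Lymphocytes enter lymph nodes from the blood with the help of CCR7, the receptor for the chemokines CCL19 and CCL21, and leave them toward the lipid sphingosine-1-phosphate through S1PR1. S1PR4 is another receptor for that lipid, found mainly on cells of the haematopoietic lineage, and CCR9 binds CCL25, a chemokine made in thymus and small intestine. KLF2 is a zinc-finger transcription factor of resting T cells that is needed for the transcription of *S1pr1*, and KLF3 is a family member known mostly as a repressor.

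On the genome build GRCm38.p6, RefSeq places *Ccr7* (ENSMUSG00000037944) at chr11:99144199-99155077, *S1pr1* (ENSMUSG00000045092) at chr3:115710433-115715055 and *S1pr4* (ENSMUSG00000044199) at chr10:81497745-81500137. *Ccr9* (ENSMUSG00000029530) lies at chr9:123767211-123783457, *Klf2* (ENSMUSG00000055148) at chr8:72319062-72321654 and *Klf3* (ENSMUSG00000029178) at chr5:64803521-64832901. The members are thus spread over 6 chromosomes.

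The cells came from C57BL/6 mice, 6 to 8 weeks old and without a stated genetic modification, that carried subcutaneous MC-38 tumours, a syngeneic colorectal cancer line. Blood was taken on day 18 after the tumour challenge, CD3-positive T cells were enriched, and 1 droplet-based 3′ single-cell RNA library was made for each of 4 groups. The untreated group received no immunotherapy. The anti-PD-L1 group received 150 µg of antibody blocking PD-L1 on days 10, 13 and 17, and the anti-OX40/CpG group received 150 µg of an agonistic antibody to OX40 together with 25 µg of CpG, a ligand of TLR9, on day 7. The PDOX group received both regimens. The sample label names OX40 alone, and CpG was assigned from the regimen in the paper. With 1 library a group, mouse, library and treatment cannot be told apart and no test between treatments was possible. The GEO record speaks of as many mice as blood samples, and the paper does not say how many went into a library. Tests below compare classes of cells within libraries, with the libraries as replicates.

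The 4 libraries held 862, 1451, 1583 and 1538 cell barcodes (for the untreated library first, then anti-PD-L1, then anti-OX40/CpG and last PDOX, the order of all values below) and 2392650, 4969885, 4931178 and 4121932 UMIs. Of 5434 barcodes, 135 with fewer than 200 genes were left out, which left 784, 1446, 1559 and 1510 cells. Of the 5418 distinct barcode sequences, 16 occurred in more than 1 library, between 1 and 6 in any pair of libraries. T cells were cells with 1 or more UMIs of *Cd3d*, *Cd3e* or *Cd3g* and fewer than 2 UMIs of B cell genes, among them *Cd79a*, *Cd79b* and *Ms4a1*. CD8 T cells had UMIs of *Cd8a* or *Cd8b1* and none of *Cd4*, and CD4 T cells the reverse; B cells had 2 or more B cell UMIs and none of *Cd3*. There were 319, 656, 672 and 451 CD8 T cells, 102, 197, 265 and 301 CD4 T cells and 31, 58, 8 and 38 B cells. Although T cells had been enriched, 142 cells with neither T nor B cell gates held 5 or more UMIs of myeloid genes; they serve as the measured background.

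T cells were split by *S100a4*, a calcium-binding protein gene typical of effector and memory T cells. *S100a4* UMIs were found in 3.76% (95% Clopper-Pearson interval 1.96 to 6.48), 10.7% (8.41 to 13.3), 17.3% (14.5 to 20.3) and 33.3% (28.9 to 37.8) of CD8 T cells. CD4 T cells held them in 8.82% (4.11 to 16.1), 6.09% (3.19 to 10.4), 27.5% (22.3 to 33.3) and 51.2% (45.4 to 56.9). The PDOX library thus had the highest share in both lineages, and its intervals overlapped none of the other libraries' intervals. In B cells 4.44% held an *S100a4* UMI (6 of 135 cells), and in myeloid cells 42.3% did (60 of 142 cells). Myeloid cells held 14.8 *S100a4* UMIs per 10000 UMIs, beside 23.9 in *S100a4*-positive CD8 and 29.2 in *S100a4*-positive CD4 cells. The median *S100a4*-positive cell was deeper, with 2162.5 against 1608.5 UMIs in CD8 and 2037 against 1478 UMIs in CD4 T cells, B cells had 1215 and myeloid cells 1445. Levels are therefore given as UMIs of a gene per 10000 UMIs of the class, mitochondrial, ribosomal and hemoglobin genes left out, with exact Poisson intervals at 95% that cover counting error only. Levels are compared between classes and libraries, never between genes.

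**Figure D1:**
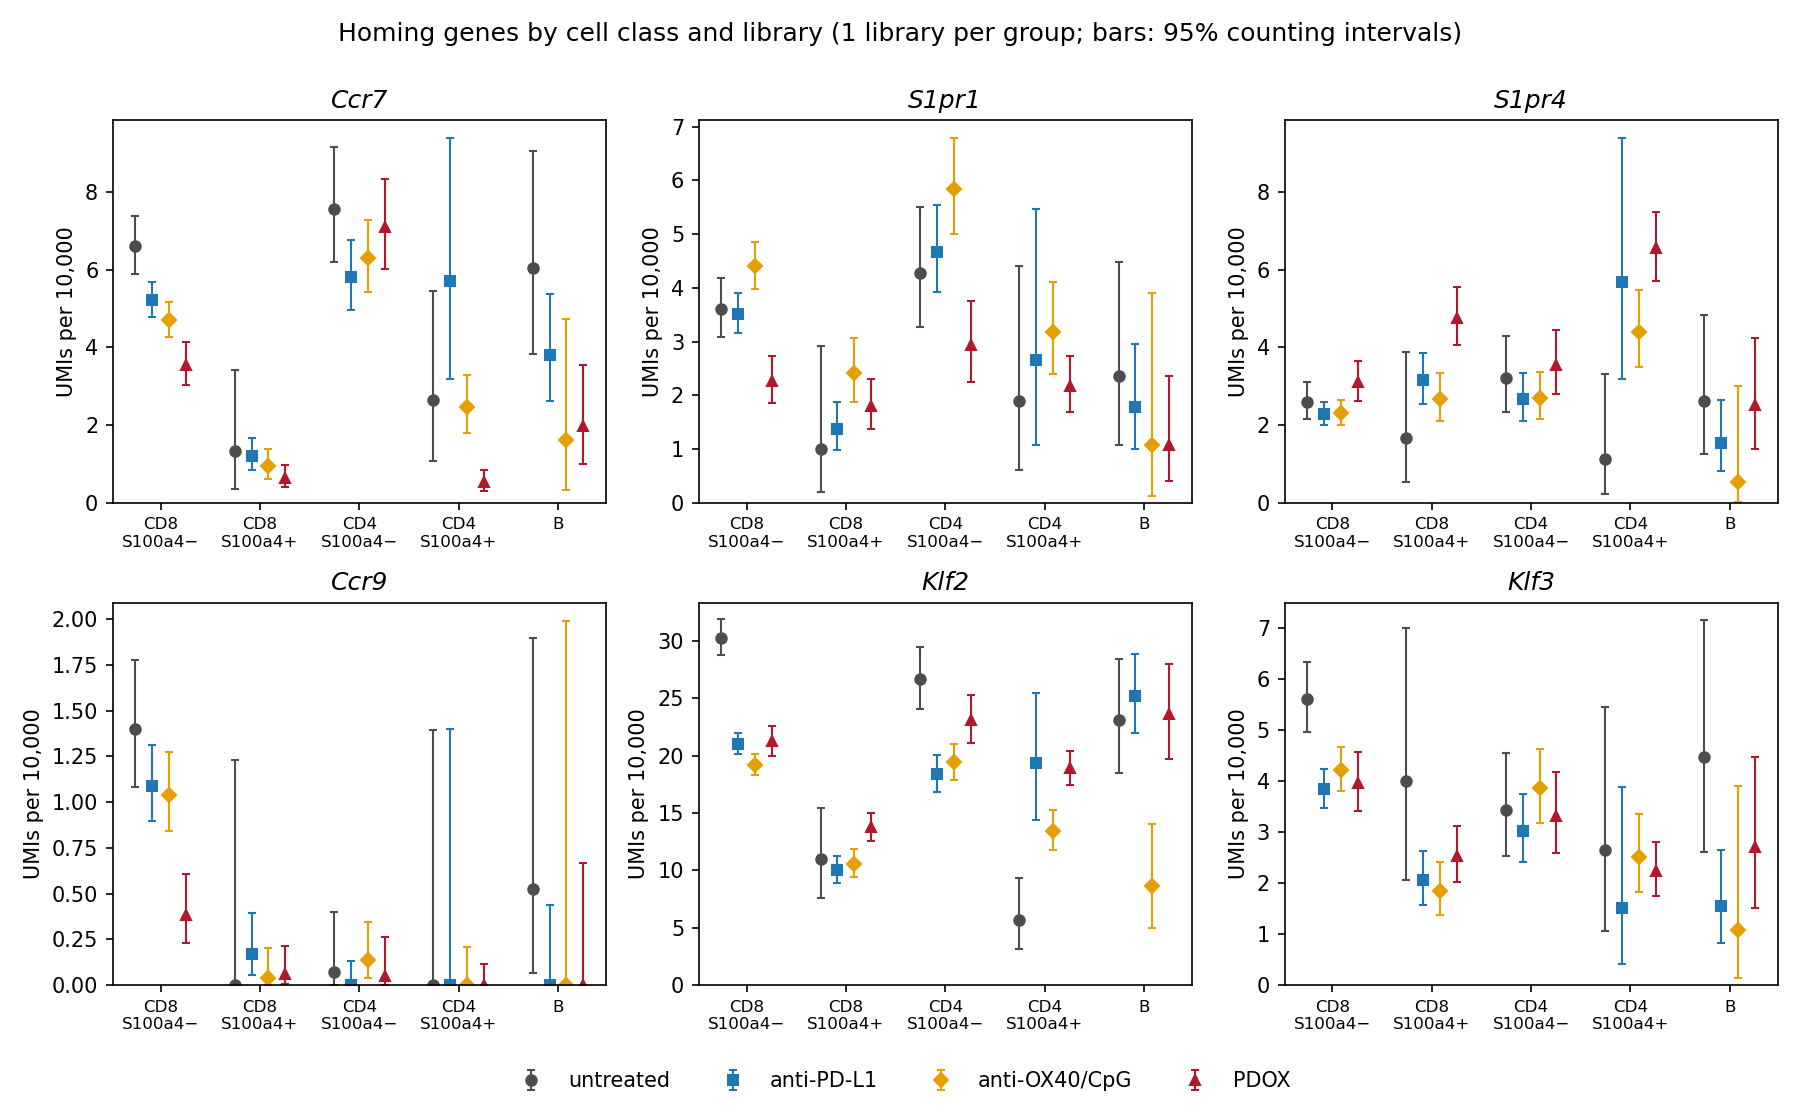
Level of each gene (y axis, UMIs per 10000 UMIs) in *S100a4*-negative and *S100a4*-positive CD8 and CD4 T cells and in B cells (x axis); each point is 1 library, and bars are 95% Poisson intervals. *Ccr7* lies between 3.55 and 6.60 in the *S100a4*-negative CD8 cells of the 4 libraries and between 0.646 and 1.33 in the positive ones, and *Ccr9* lies between 0.384 and 1.40 in the former and at most 0.168 in the latter.

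In CD8 T cells the lymph node entry receptor gene *Ccr7* was far lower where *S100a4* was found. Its level was 6.60, 5.22, 4.69 and 3.55 in *S100a4*-negative and 1.33, 1.21, 0.936 and 0.646 in *S100a4*-positive CD8 cells, the last from 4, 36, 26 and 22 UMIs. All 4 negative values lie above all 4 positive ones, and the PDOX library is lowest in both classes. Within libraries the positive cells held 0.202 (95% interval 0.0547 to 0.522), 0.232 (0.161 to 0.325), 0.200 (0.129 to 0.297) and 0.182 (0.111 to 0.285) of the level of the negative cells, so the ratios differed less than their intervals. The edgeR log2 fold change was −2.22 (SE 0.16), with a Benjamini-Hochberg adjusted p of 3.23e-08 and the direction shown by 4 of 4 libraries. In CD4 T cells *Ccr7* stood at 7.56, 5.80, 6.29 and 7.09 without and 2.64, 5.69, 2.45 and 0.526 with *S100a4*. There the anti-PD-L1 library showed nearly no difference, with a ratio of 0.982 (0.537 to 1.67) from 12 positive cells, of which 3 held *Ccr7* UMIs; 13 of the 15 UMIs lay in the 3 cells with 1 *S100a4* UMI. PDOX showed the largest, with 0.0741 (0.0420 to 0.123).

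The CD4 test rests on 3 libraries, since the untreated library held only 9 *S100a4*-positive CD4 cells, under the minimum of 10. Over these, edgeR gave *Ccr7* a log2 fold change of −1.95 (SE 0.36) with a Benjamini-Hochberg adjusted p of 0.00135, lower in 3 of 3 libraries. The call was lost without the anti-OX40/CpG library, at a log2 fold change of −2.29, and without the PDOX library, at −0.96; it was also lost with each cell thinned to 750 UMIs, at −1.87. Thinning left 4 positive CD4 cells in the anti-PD-L1 library, under the minimum, so the thinned CD4 test rests on anti-OX40/CpG and PDOX alone. With the libraries summed, the level of *Ccr7* in CD4 cells went from 6.51 (6.01 to 7.05) at 0 UMIs to 4.23 (2.85 to 6.03) at 1, 1.61 (0.920 to 2.61) at 2 to 3 and 0.960 (0.676 to 1.32) at 4 or more. Only the anti-OX40/CpG library was lower at each step, with 6.29, 5.54, 4.19 and 1.49; PDOX had 7.09, 1.03, 0.163 and 0.538, and anti-PD-L1 5.80, 16.5 (8.78 to 28.2), 4.94 and 0. In CD8 cells the sums were 5.01 (4.75 to 5.28), 1.62 (1.05 to 2.39), 0.695 (0.347 to 1.24) and 0.821 (0.613 to 1.08). The first step was smaller in the anti-PD-L1 library, with 5.22, 3.42, 1.58 and 0.856, than in PDOX, with 3.55, 0.675, 0.555 and 0.660.

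*S1pr1*, the lymph node exit receptor gene, was lower by a smaller step. In CD8 T cells it stood at 3.60, 3.52, 4.40 and 2.26 without and 1.0, 1.38, 2.41 and 1.79 with *S100a4*. Every library was lower with *S100a4*, but the anti-OX40/CpG positive cells lie above the PDOX negative ones, so the classes overlap between libraries. The ratio of positive to negative cells was 0.278 (0.0567 to 0.826), 0.392 (0.276 to 0.542), 0.548 (0.417 to 0.712) and 0.791 (0.568 to 1.09), closest to 1 in PDOX, where the negative cells were themselves low. edgeR gave a log2 fold change of −0.85 (SE 0.18) and a Benjamini-Hochberg adjusted p of 0.00241, lower in 4 of 4 libraries. Without the anti-PD-L1 library, at −0.68, or with thinning to 750 UMIs, at −0.63, the call was lost. Thinning left 4 positive CD8 cells in the untreated library, which thus fell out of the thinned CD8 test.

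In CD4 T cells *S1pr1* stood at 4.28, 4.67, 5.85 and 2.93 without and 1.89, 2.66, 3.17 and 2.16 with *S100a4*. Again each library was lower with *S100a4*, and again the PDOX negative cells, at 2.93, lie within the range of the positive classes. edgeR gave −0.69 (SE 0.19) on the log2 scale with a Benjamini-Hochberg adjusted p of 0.0276, lower in 3 of 3 libraries. This call held in 6 of 15 alternatives; it was lost without the anti-OX40/CpG library, at −0.55, and without the PDOX library, at −0.89. Over the strata of 0, 1, 2 to 3 and 4 or more *S100a4* UMIs, *S1pr1* was 3.60, 2.53, 1.83 and 1.64 in CD8 and 4.59, 2.54, 2.82 and 2.41 in CD4 cells, libraries summed, with overlapping intervals among the 3 upper strata in each lineage. Single libraries differed: PDOX CD8 cells had 2.26, 1.69, 1.66 and 1.85, and anti-PD-L1 CD4 cells 4.67, 0, 4.94 and 3.47.

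*S1pr4* went the other way from *S1pr1*, a receptor for the same lipid. In CD8 T cells its level was 2.60, 2.29, 2.31 and 3.10 without and 1.67, 3.16, 2.67 and 4.76 with *S100a4*, and in CD4 T cells it was 3.21, 2.67, 2.71 and 3.55 without and 1.13, 5.69, 4.40 and 6.55 with it. The 3 treated libraries were higher with *S100a4* in both lineages, whereas the untreated library, with 5 and 3 UMIs in its positive cells, was lower. Its ratios had wide intervals, 0.640 (0.204 to 1.53) in CD8 and 0.353 (0.0702 to 1.10) in CD4. The treated ratios were 1.38 (1.07 to 1.76), 1.16 (0.874 to 1.51) and 1.54 (1.22 to 1.94) in CD8 and 2.13 (1.14 to 3.74), 1.63 (1.18 to 2.25) and 1.85 (1.41 to 2.44) in CD4.

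In CD8 cells *S1pr4* did not pass the test (edgeR log2 fold change 0.41, SE 0.16, Benjamini-Hochberg adjusted p 0.0754, higher in 3 of 4 libraries). It passed in 6 of 15 alternatives, among them without the untreated library, at 0.51, and with T cells that held any myeloid UMI left out, at 0.72, an alternative chosen after seeing the data. In CD4 cells edgeR gave a log2 fold change of 0.85 (SE 0.17) and a Benjamini-Hochberg adjusted p of 0.00318, higher in 3 of 3 libraries. That call was lost without the anti-OX40/CpG library, at 0.95, without the PDOX library, at 0.79, with thinning, at 0.15, and in DESeq2, at 0.86. It was also lost with the minimum lowered to 5 cells, which brings in the untreated library, at 0.64. With rising *S100a4* UMIs the level of *S1pr4* was 2.48, 2.66, 3.60 and 3.74 in CD8 and 2.96, 3.80, 6.44 and 5.66 in CD4 cells, libraries summed. Single libraries went the other way: anti-OX40/CpG CD8 cells stood at 1.99 at 2 to 3 UMIs against 2.31 at 0, and untreated cells with 4 or more UMIs at 1.49 against 2.60 in CD8 and 0 (upper bound 1.79) against 3.21 in CD4.

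*Ccr9*, the gut and thymus homing receptor gene, was a gene of *S100a4*-negative CD8 cells. There its level was 1.40, 1.09, 1.04 and 0.384, from 66, 111, 93 and 18 UMIs. In *S100a4*-positive CD8 cells it was 0, 0.168, 0.0360 and 0.0587, from 0, 5, 1 and 2 UMIs. The PDOX library is the lowest of the negative class, and each negative value still lies above each positive one. edgeR gave a log2 fold change of −3.21 (SE 0.38) and a Benjamini-Hochberg adjusted p of 8.39e-06, lower in 4 of 4 libraries, and the call held in all 14 alternatives that tested the gene.

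In CD4 T cells *Ccr9* counted 6 UMIs in 617 *S100a4*-negative cells and 0 UMIs in 248 positive ones, whose level is thus below 0.0664 (upper bound of the interval). It was present in 0.972% of the negative CD4 cells against 1.41% of the myeloid cells, which is the background, and was too rare there for the *S100a4* test. Between *S100a4*-negative CD8 and CD4 cells, edgeR gave a log2 fold change of 3.89 (SE 0.39) with a Benjamini-Hochberg adjusted p of 8.32e-07, higher in CD8 in 4 of 4 libraries; it held in all 13 alternatives that tested the gene.

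*Klf2* was lower with *S100a4* in CD8 T cells of each library. Its level was 30.3, 21.0, 19.2 and 21.3 without and 11, 10.02, 10.6 and 13.7 with *S100a4*. The negative values stay above the positive ones, and the untreated negative cells stand highest. The ratios moved from 0.363 (0.249 to 0.512) in the untreated through 0.476 (0.420 to 0.537) and 0.550 (0.484 to 0.623) to 0.646 (0.578 to 0.722) in the PDOX library. edgeR gave a log2 fold change of −0.92 (SE 0.14) with a Benjamini-Hochberg adjusted p of 0.00014, lower in 4 of 4 libraries and called in all 15 alternatives.

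In CD4 T cells *Klf2* stood at 26.7, 18.4, 19.4 and 23.1 without and 5.67, 19.4, 13.4 and 18.9 with *S100a4*. The anti-PD-L1 library showed no lower level in positive cells, with a ratio of 1.05 (0.774 to 1.41), and the untreated library the largest step, 0.212 (0.118 to 0.355). The edgeR log2 fold change was −0.30 (SE 0.14) with a Benjamini-Hochberg adjusted p of 0.202, lower in 2 of 3 libraries, which does not pass and passed in 0 of 15 alternatives. By *S100a4* stratum, *Klf2* was 22.0, 15.7, 8.79 and 11.2 in CD8 and 21.0, 19.4, 18.1 and 15.6 in CD4 cells, libraries summed. In the anti-PD-L1 library CD4 cells with 4 or more UMIs stood at 25.7 against 18.4 at 0.

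*Klf3* was 5.61, 3.84, 4.22 and 3.95 in *S100a4*-negative and 4.00, 2.05, 1.84 and 2.53 in *S100a4*-positive CD8 T cells. Each library was lower with *S100a4*, though the untreated positive cells, from 12 UMIs, reach the range of the negative class. edgeR gave a log2 fold change of −0.81 (SE 0.14) and a Benjamini-Hochberg adjusted p of 0.000619, lower in 4 of 4 libraries; the call was lost with thinning, at −0.60. In CD4 cells it was 3.42, 3.02, 3.86 and 3.31 without and 2.64, 1.52, 2.51 and 2.23 with *S100a4*, the negative values all above the positive ones. There edgeR gave −0.62 (SE 0.20) with a Benjamini-Hochberg adjusted p of 0.0604, lower in 3 of 3 libraries, which does not pass; it passed in 2 of 15 alternatives.

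**Figure D2:**
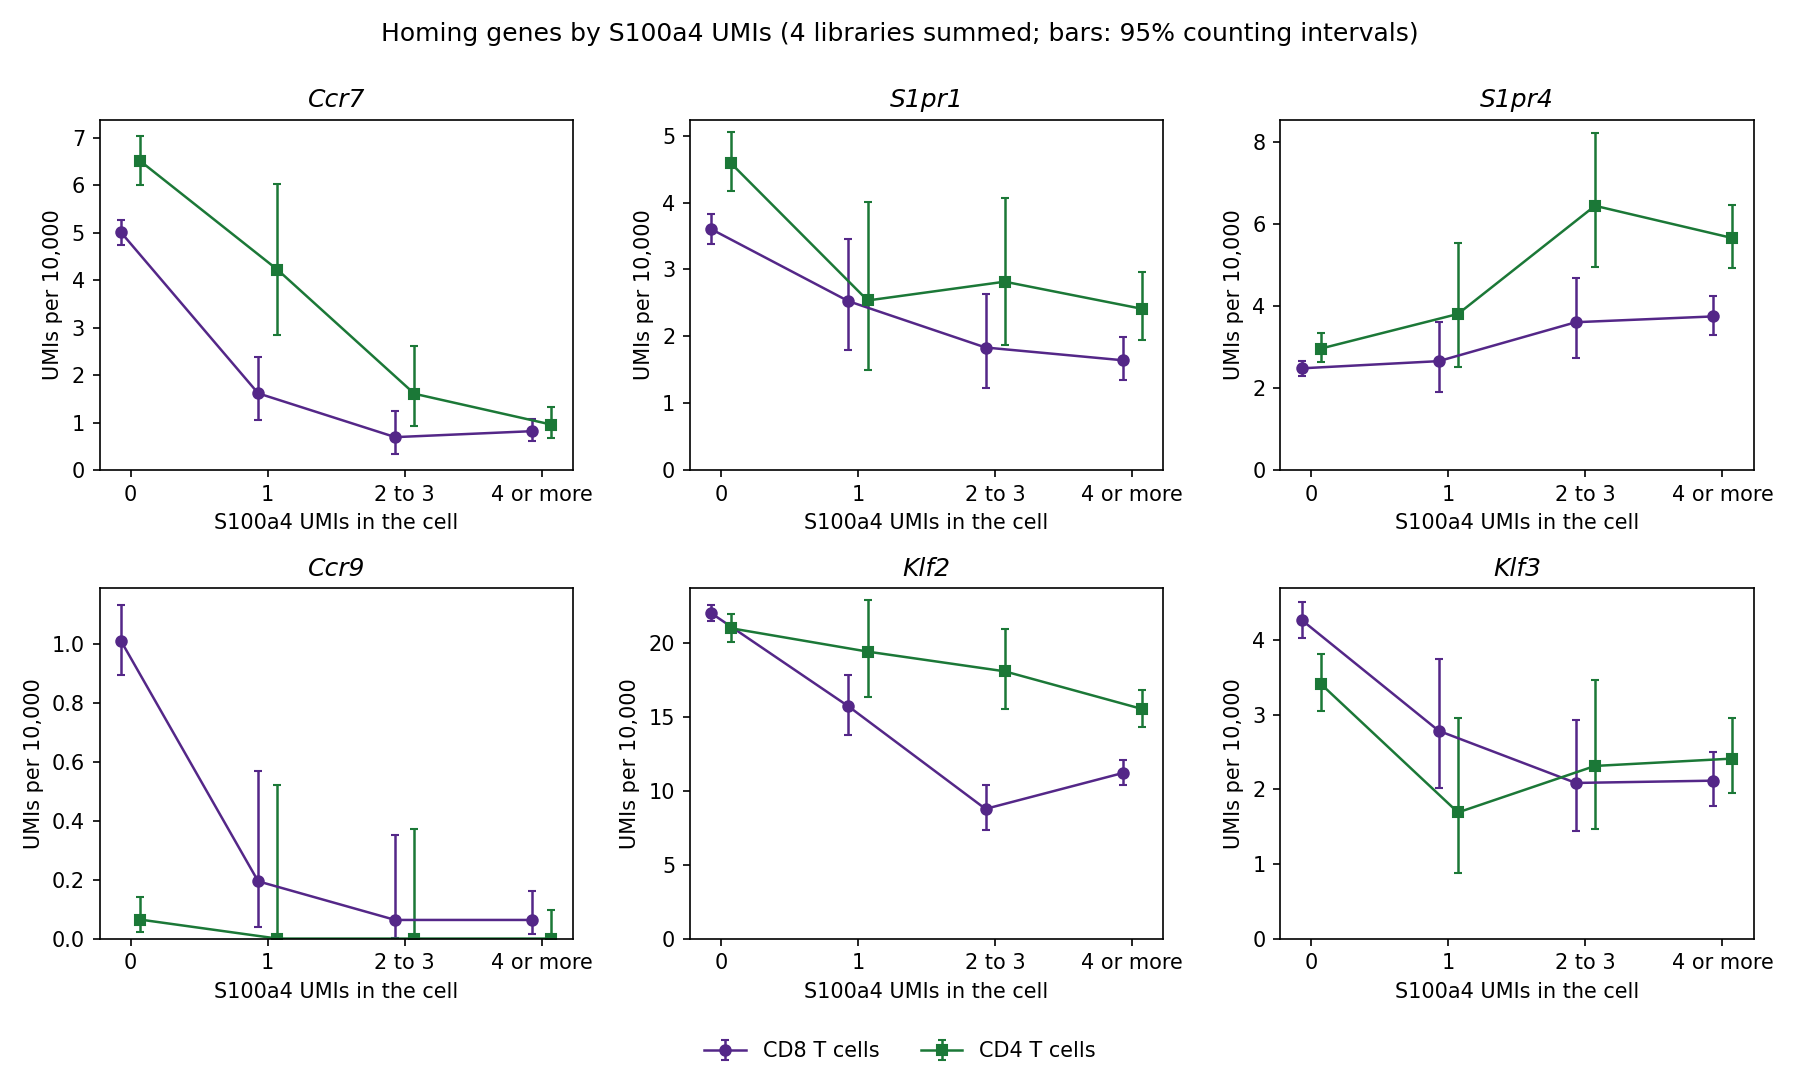
Level of each gene (y axis, UMIs per 10000 UMIs, 4 libraries summed) in CD8 and CD4 T cells by their number of *S100a4* UMIs (x axis), with 95% Poisson intervals. *Ccr7* goes from 6.51 to 0.960 in CD4 and from 5.01 to 0.821 in CD8 cells, while *S1pr4* is higher at 4 or more *S100a4* UMIs than at 0 in both lineages.

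Counted over the 6 members in the CD8 comparison, 5 were called lower, where 8.63% of the 5339 genes tested were lower. None was called higher by edgeR, where 9.38% of all genes were; at an unadjusted p under 0.05 it was 1, and by DESeq2 0. In the CD4 comparison 5 members could be tested, and 2 were called lower and 1 higher, beside 4.9% and 4.7% of 3980 genes. edgeR called 962 genes in CD8 and 382 in CD4 cells, but the number depends on single libraries. In CD8 cells, leaving out anti-PD-L1 gave 505 and leaving out anti-OX40/CpG 564 genes; in CD4 cells it was 10 without the anti-OX40/CpG and 139 without the PDOX library. The members called in CD4 fell to 0 without the anti-OX40/CpG library and to 0 without the PDOX library. With thinning, each member called in CD4 lost its call, in a test that rests on the anti-OX40/CpG and PDOX libraries alone. Both thinning and DESeq2 called fewer genes in each lineage, as given under the processing. With the lower count limit removed, the median log2 fold change of all genes moved to −0.16 in CD8 and −0.10 in CD4, from −0.02 in both.

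The difference between the lineages was tested itself, as an interaction over 14 profiles. edgeR called 5 of 5472 genes, or 0.0914%, and 0 members; at an unadjusted p under 0.05 it was 1 member, *Klf2*, and by DESeq2 0. Without the untreated library 3 genes were called and without the anti-OX40/CpG library 21, again with 0 members by edgeR. The 5 genes, named after their values were seen, were *Ccl6*, *Nkg7*, *Igfbp4*, *Ccl3* and *Dapl1*. Monocyte markers had a median of −3.03 in the same comparison. With T cells that held myeloid UMIs left out, an alternative chosen after seeing the data, edgeR again called 5 genes, of which 2, *Nkg7* (1.34) and *Igfbp4* (−2.98), were among those named; *Dapl1* (−1.004) lost its call, and *Ccl6* and *Ccl3* had too few UMIs for the test. This alternative also lost the untreated library in CD8 and the anti-PD-L1 library in CD4, for want of positive cells. *Klf2* had a log2 difference, CD4 minus CD8, of 0.60 (SE 0.21), with a Benjamini-Hochberg adjusted p of 0.72 from edgeR. That *Klf2* was called in CD8 and not in CD4 cells, and *S1pr4* in CD4 and not in CD8 cells, is therefore not shown to be a difference between the lineages.

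Markers of other cells moved with the *S100a4* classes. The 6 monocyte markers summed to 218, 92.3, 8.10 and 4.79 per 10000 in *S100a4*-positive and 7.56, 7.06, 4.90 and 4.91 in *S100a4*-negative CD8 cells, with *Lyz2* the most abundant at 21.5 in the positive cells. In *S100a4*-positive CD4 cells the sum was 312, 6.07, 4.46 and 5.81, against 416 in the myeloid cells themselves. The untreated positive cells were thus rich in monocyte transcripts, and the same cells were low in the T cell markers, at 30.7 in CD8 and 24.6 in CD4 beside 54.5 and 54.6 in the untreated negative cells. The anti-PD-L1 CD8 cells, which enter each CD8 test, showed the same: T cell markers summed to 38.8 in the 70 positive and 56.1 in the negative cells, the median cell held 3351 against 1685.5 UMIs, and 62.9% of the positive and 48.0% of the negative cells held myeloid UMIs. The T cell list has 4 of its 6 genes in the table, without *Trac* and *Trbc2*, and the B cell list 6 of 8, without *Ighm* and *Ighd*. The B cell list summed to 6.87 in positive and 1.45 in negative CD8 cells, led by *Cd74*, and reached 83.1 in the 9 untreated positive CD4 cells. By library it was 8.33, 11.2, 9.11 and 1.12 in positive and 2.88, 1.93, 0.493 and 0.790 in negative CD8 cells. By edgeR, 3 of 4 tested monocyte and 2 of 2 tested B cell markers were higher with *S100a4* in CD8 cells, and 1 of 3 monocyte markers was higher and 1 lower in CD4 cells.

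T cells with any UMI of the 7 myeloid gate genes made up 51.4% of *S100a4*-positive and 39.3% of negative CD8 cells, and 48.4% and 34.5% of CD4 cells. With all of them left out, an alternative chosen after seeing the data, the CD8 log2 fold changes were −1.95 for *Ccr7*, −0.89 for *S1pr1*, 0.72 for *S1pr4*, −2.29 for *Ccr9*, −0.64 for *Klf2* and −0.69 for *Klf3*, and all 6 were called by edgeR. In CD4 cells they were −2.02 for *Ccr7* and 1.05 for *S1pr4*, both called, and −0.63 for *S1pr1*, no longer called. What part doublets or free RNA have in the single values was otherwise not tested.

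Other marker lists differed between the classes too. In positive and negative CD8 cells the neutrophil markers summed to 0.116 and 0.336, the platelet markers to 0.423 and 0.259 and the NK cell markers to 1.53 and 0.900. Erythroid markers summed to 1.90 and 29.7, the latter from the anti-OX40/CpG library, whose *S100a4*-negative CD8 cells stood at 88.8. Markers of proliferating cells summed to 7.49 and 0.935 and Treg markers to 1.83 and 0.855; in CD4 cells the Treg markers summed to 4.75 and 1.34. By edgeR, 2 of 2 tested markers of proliferating cells and 1 of 1 Treg marker were higher in positive CD8 cells, and 1 of 2 Treg markers in positive CD4 cells. The part of these lists in the members' values was not tested.

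Adjusted p values of the lists below are Benjamini-Hochberg values from edgeR. The naive and effector lists show what kind of cells the split separates. All 6 naive T cell genes tested were lower with *S100a4* in both lineages by edgeR, with medians of −1.95 in CD8 and −2.38 in CD4. In CD8 they included *Dapl1* (−2.29, adjusted p 8.37e-09) and *Lef1* (−2.003, adjusted p 1.60e-07), in CD4 *Igfbp4* (−5.62, adjusted p 4.55e-10) and *Lef1* (−2.52, adjusted p 1.98e-06), lower in 4 of 4 and 3 of 3 libraries. All 8 effector and memory genes were higher in both, with medians of 1.92 and 1.85, among them *Lgals1* (3.15 and 2.67) and *S100a6* (3.39 and 2.73), higher in 4 of 4 and 3 of 3 libraries. Since *S100a4* belongs to the same group of genes, these lists describe the split and are no independent result.

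Of the other genes of lymph node entry and exit, 5 of 9 were tested in CD8 cells, with a list median of −0.69 against −0.02 over all genes, and 4 in CD4 cells, with a median of 0.11. *Cd69*, whose product holds S1PR1 inside the cell, was lower with *S100a4* in CD8 cells by edgeR (−0.69, adjusted p 0.00892, 4 of 4 libraries).

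Gut and mucosal homing genes other than *Ccr9* went both ways. Of 7 genes, 4 were tested in CD8 cells, with 2 higher and 1 lower, and 3 in CD4 cells, with 2 higher and 0 lower; the medians were 0.43 and 0.75. *Itga4* and *Itgb7*, which encode the chains of the gut homing integrin, were higher with *S100a4* by edgeR. *Itga4* changed by 0.54 in CD8 (adjusted p 0.0121, 4 of 4 libraries) and 0.75 in CD4 cells (adjusted p 0.0275, 3 of 3 libraries). *Itgb7* changed by 0.56 in CD8 (adjusted p 0.00712, 4 of 4 libraries) and 0.49 in CD4 cells (adjusted p 0.0499, 3 of 3 libraries). *Itgae*, for the epithelial retention integrin, was lower in CD8 cells (−0.89, adjusted p 0.0453, 4 of 4 libraries).

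Of the other 15 KLF family genes, 3 were tested in each lineage. In CD8 cells *Klf7* (−1.39, SE 0.27, adjusted p 0.00117) and *Klf6* (−0.69, SE 0.15, adjusted p 0.00318) were lower in 4 of 4 libraries by edgeR, and 0 were higher. In CD4 cells 0 were called in either direction, with a median of −0.22.

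Of 26 genes of signalling and ligand handling, 25 are in the table, and 15 were tested in CD8 cells, with 4 higher and 2 lower, and 13 in CD4 cells, with 1 of each. *Rgs10* and *Rgs1*, which encode regulators of G protein signalling, stood in opposite directions. *Rgs10* was lower with *S100a4* (edgeR −1.67, adjusted p 4.13e-07, 4 of 4 libraries in CD8; −1.69, adjusted p 8.58e-06, 3 of 3 in CD4). *Rgs1* was higher (edgeR 1.01, adjusted p 0.000321, 4 of 4 libraries in CD8; 1.63, adjusted p 0.000167, 3 of 3 in CD4). In CD8 cells *Gnai2*, for a G protein subunit used by chemokine receptors, was higher in 4 of 4 libraries (0.60, adjusted p 0.00225), and *Rgs2* (0.86, adjusted p 0.0444) and *Rgs3* (0.83, adjusted p 0.0367) were higher in 3 of 4 by edgeR.

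Receptors of inflammatory homing moved opposite to *Ccr7*: of 7 genes, all 5 tested in CD8 and all 3 tested in CD4 cells were higher, with medians of 2.66 and 3.37. By edgeR *Ccr2* changed by 3.05 in CD8 (adjusted p 5.91e-07, 4 of 4 libraries) and 3.37 in CD4 cells (adjusted p 2.46e-07, 3 of 3 libraries), and *Cxcr3* by 1.83 (adjusted p 8.87e-06, 4 of 4) and 2.01 (adjusted p 1.10e-05, 3 of 3). *Cxcr6* changed by 2.21 in CD8 (adjusted p 6.85e-07, 3 of 4) and 3.45 in CD4 cells (adjusted p 3.28e-07, 3 of 3). *Cx3cr1* (2.66, adjusted p 1.02e-06) was higher in 4 of 4 libraries in CD8 cells. *Ccr2* and *Cx3cr1* are also expressed by monocytes, whose markers moved the same way in CD8 cells.

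Between *S100a4*-negative CD8 and CD4 T cells, *Ccr9* had the largest difference of the members. *Ccr7* was lower in CD8 in each library, from 5.22 against 5.80 in the anti-PD-L1 to 3.55 against 7.09 in the PDOX library, a ratio of 0.50 (0.398 to 0.627). *S1pr1* was lower in CD8 in each library too, with ratios of 0.841, 0.752, 0.752 and 0.772. *Klf3* was higher in CD8 in each library, from 5.61 against 3.42 in the untreated to 4.22 against 3.86 in the anti-OX40/CpG library. edgeR gave log2 fold changes, CD8 over CD4, of −0.38 (SE 0.10, adjusted p 0.0191) for *Ccr7*, −0.32 (SE 0.08, adjusted p 0.0195) for *S1pr1* and 0.39 (SE 0.09, adjusted p 0.012) for *Klf3*, each in 4 of 4 libraries. *S1pr4* (−0.19, adjusted p 0.35, 4 of 4 libraries) and *Klf2* (0.10, adjusted p 0.389, 2 of 4 libraries) did not pass in edgeR.

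With *Ccr9*, 2 members were called higher and 2 lower in CD8, beside 4.16% and 3.34% of 5268 genes. Of the other calls, that of *Ccr7* was lost without the anti-OX40/CpG (−0.40) or the PDOX library (−0.23). *S1pr1* was lost without the anti-PD-L1 (−0.31) or the anti-OX40/CpG library (−0.31), and *Klf3* without either of these (0.39 and 0.47). DESeq2 called none of the 3, nor did edgeR with no library block; with thinning *S1pr1* (−0.43) and *Klf3* (0.26) were lost, and *S1pr1* also with no filter on low counts (−0.27). The number of called genes fell from 395 to 163 without the anti-OX40/CpG library, and the members called to 2 without the anti-PD-L1 and 1 without the anti-OX40/CpG library. Of the other genes, 1 of 5 tested lymph node genes was higher and 1 lower in CD8, 1 of 4 gut homing genes higher and 1 lower, 0 of 3 KLF genes called, 1 of 14 signalling genes lower and 1 of 2 inflammatory receptors higher.

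B cells carried the lymph node and *Klf2* transcripts too, with *Ccr7* and *S1pr1* below the levels of *S100a4*-negative T cells. *Ccr7* was 6.03, 3.81, 1.62 and 1.98 in B cells, from 23, 32, 3 and 11 UMIs, beside 6.82, 5.35, 5.09 and 4.65 in *S100a4*-negative CD8 and CD4 T cells summed. *S1pr1* was 2.36, 1.79, 1.08 and 1.08 beside 3.75, 3.77, 4.76 and 2.47. Both were lower in B cells in each library, and the B cell value of *Ccr7* was highest in the untreated library. *S1pr4* was 2.62, 1.55, 0.540 and 2.52 beside 2.74, 2.37, 2.41 and 3.24, *Klf2* 23.1, 25.2, 8.63 and 23.6 beside 29.5, 20.5, 19.3 and 21.9, and *Klf3* 4.46, 1.55, 1.08 and 2.71 beside 5.11, 3.66, 4.13 and 3.75. *Ccr9* had 2 UMIs in all B cells, both in the untreated library. The 8 B cells of the anti-OX40/CpG library gave the lowest or joint lowest values of most members and did not enter the test.

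Over the remaining 3 libraries, edgeR called 2 members lower in B cells, beside 8.43% of 5076 genes. They were *S1pr1* (−0.97, SE 0.25, adjusted p 0.00634, 3 of 3 libraries) and *Ccr9* (−2.64, SE 0.80, adjusted p 0.0208, 3 of 3 libraries). None was higher, beside 7.78% of all genes; at an unadjusted p under 0.05 it was 0, and by DESeq2 0. *Ccr7* (−0.55, adjusted p 0.0724), *Klf3* (−0.62, adjusted p 0.0625) and *S1pr4* (−0.35, adjusted p 0.415) were lower in 3 of 3 libraries without passing in edgeR, and *Klf2* (0.06, adjusted p 0.882) was higher in 2 of 3. The sign of *Klf2* turned in 4 of 14 alternatives, to −0.21 with no filter on low counts, −0.13 without the anti-PD-L1 library, −0.00208 without the PDOX library and −0.16 with profiles of 5 or more cells. Without a filter on low counts the median of all genes itself moved from −0.07 to −0.58. DESeq2, at −0.95 and −2.59, called neither *S1pr1* nor *Ccr9*; edgeR also lost *S1pr1* with thinning and *Ccr9* with no library block. Without the anti-PD-L1 library *S1pr1* (−0.92) and *Ccr9* (−1.55) lost their calls, so that 0 members were called, and 487 genes in place of 823; without the untreated library 4 members were called, with *Ccr7* at −0.70 and *Klf3* at −0.82.

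The B cells were not clean of other transcripts. Platelet markers summed to 5.25, 1.19, 0 and 33.0, led by *Pf4*, and monocyte markers to 15.5, 57.9, 54.5 and 79.0, led by *Lyz2*, beside 459 for the B cell list. *Cd8a* and *Cd8b1* summed to 0.867 and *Cd4* to 0.255 in them, though the gate allows no *Cd3* UMI. All 4 monocyte and both platelet genes tested were higher in B than in T cells by edgeR, and the part of these transcripts in the B cell values was not tested. Beside the members, 2 of 6 tested lymph node genes were higher in B cells, 1 of 3 gut homing genes lower and 2 of 3 KLF genes lower. Of the signalling genes, 1 of 15 was higher and 1 lower, and of the inflammatory receptors 1 of 2 each way.

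**Figure D3:**
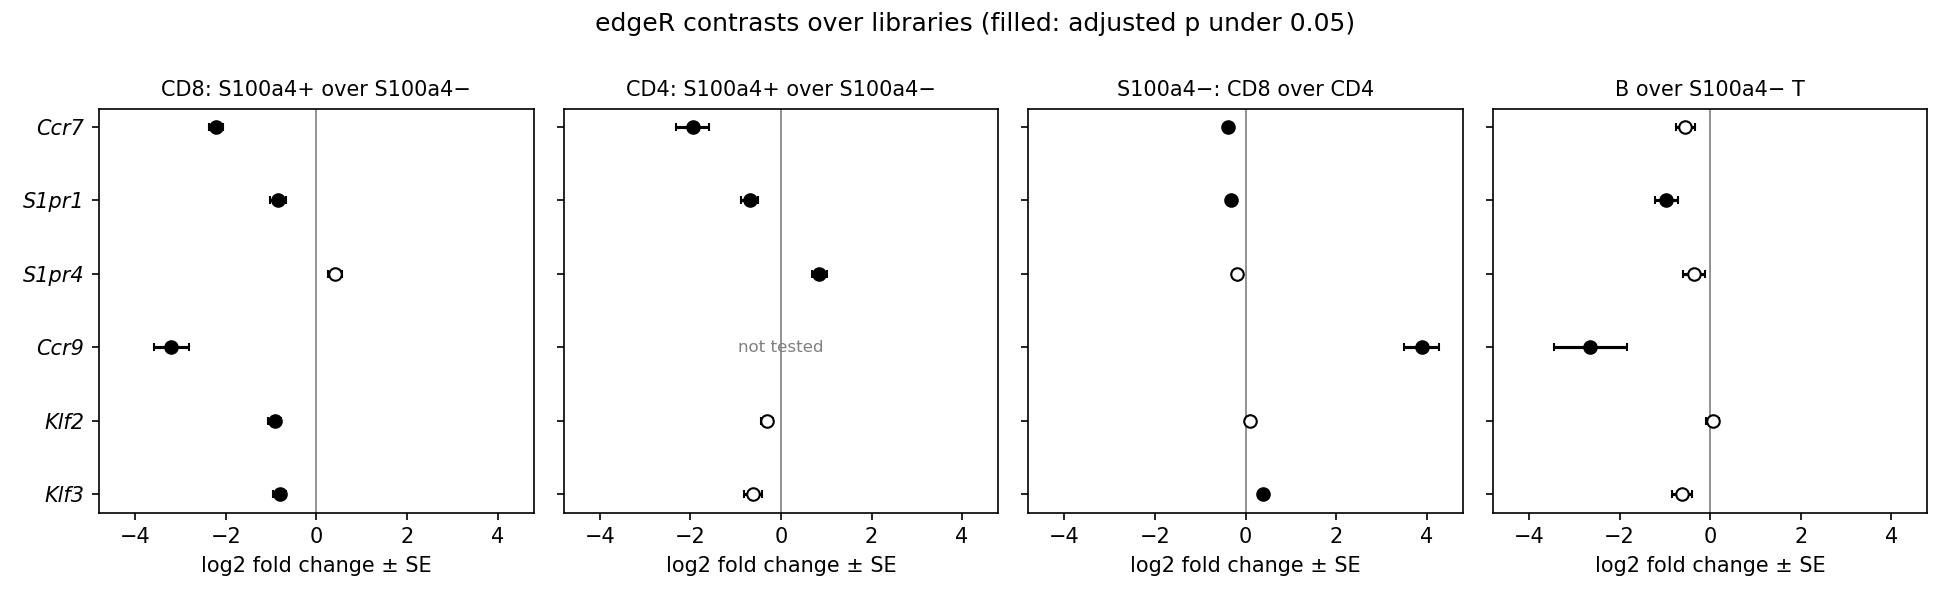
edgeR log2 fold change (x axis) with its SE of each gene in 4 comparisons of cell classes over 3 or 4 libraries; filled points have a Benjamini-Hochberg adjusted p under 0.05. In the CD8 comparison 5 of 6 genes lie to the left of 0 as filled points, while *S1pr4* lies to the right of 0 in both lineages.

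Ordered by their means over the 4 libraries, the classes ranked differently for each gene. *Ccr7* ran from CD4 *S100a4*-negative (mean 6.69, SD 0.790, n = 4 libraries) over CD8 negative (5.02, SD 1.27), B (3.36, SD 2.02) and CD4 positive (2.83, SD 2.14) to CD8 positive cells (1.03, SD 0.306). *S1pr1* had the order CD4 negative (4.43, SD 1.2), CD8 negative (3.44, SD 0.882), CD4 positive (2.47, SD 0.566), CD8 positive (1.65, SD 0.605) and B (1.58, SD 0.620). In both orders no neighbours differed beyond 1 SD on each side, though the ends did. These SDs, here and in the orders below, run over libraries of different treatment and leave aside the pairing of classes within libraries. The paired edgeR test of negative CD8 against CD4 cells, given above with its alternatives, called *Ccr7*, *S1pr1* and *Klf3* all the same.

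*S1pr4* started with the positive classes, CD4 (4.44, SD 2.38) and CD8 (3.06, SD 1.29), followed by CD4 negative (3.03, SD 0.422), CD8 negative (2.57, SD 0.377) and B cells (1.81, SD 0.976). *Ccr9* was led by CD8 negative cells (0.977, SD 0.426), separate from the next class, before B (0.131, SD 0.262), CD8 positive (0.0657, SD 0.0724), CD4 negative (0.0635, SD 0.0563) and CD4 positive cells (0). The last of these had 0 UMIs in each library, so its place below CD4 negative cells, with 6 UMIs, is not shown. Neighbours otherwise overlapped for both genes.

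*Klf2* was highest in CD8 negative (23.0, SD 4.99) and CD4 negative cells (21.9, SD 3.78), then B (20.1, SD 7.73), CD4 positive (14.3, SD 6.37) and CD8 positive cells (11.3, SD 1.66). *Klf3* followed the order CD8 negative (4.41, SD 0.818), CD4 negative (3.40, SD 0.345), CD8 positive (2.60, SD 0.974), B (2.45, SD 1.51) and CD4 positive (2.22, SD 0.502). Neighbours overlapped within 1 SD throughout for both genes.

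The share of cells with a UMI depends on depth as well as on the level. *Ccr7* was found in 49.1% of *S100a4*-negative and 16.4% of positive CD8 cells, 53.0% and 14.5% of CD4 cells and 37.0% of B cells, beside 4.23% of the myeloid cells. *S1pr1* was found in 42.4% and 33.6%, 45.9% and 37.1%, and 22.2%, beside 5.63%, and *Ccr9* in 13.2% and 1.44%, 0.972% and 0, and 1.48%, beside 1.41%. Shares of *Ccr7* and *S1pr1* thus stand above the myeloid background in all 5 classes, and those of *Ccr9* outside *S100a4*-negative CD8 cells do not differ from it beyond their intervals.

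*S1pr4* was found in 31.0% and 53.7% of negative and positive CD8 cells, 34.7% and 63.3% of CD4 cells and 23.0% of B cells, beside 14.1% of myeloid cells. *Klf2* was found in 87.3% and 84.2%, 86.5% and 87.9%, and 84.4%, beside 71.1%, and *Klf3* in 46.1% and 36.8%, 37.4% and 36.7%, and 30.4%, beside 32.4%. Myeloid cells are known to express *Klf2* too, so they are no empty background for it, and of the 5 classes only *S100a4*-negative CD8 cells have a share of *Klf3* above theirs beyond the intervals.

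With each cell thinned to 750 UMIs the depths are equal; this left out 115, 111, 196 and 212 cells below that depth, and gates and *S100a4* were read again. A cell whose *S100a4* UMIs were not drawn thus counts as negative here, so the classes are not those used above. *Ccr7* was then found in 28.1% of 1495 negative and 5.65% of 230 positive CD8 cells, and in 36.6% of 358 negative and 6.84% of 117 positive CD4 cells. *S1pr1* was found in 24.4% and 14.8% of CD8 and 31.6% and 17.9% of CD4 cells, *S1pr4* in 18.2% and 28.3% and in 22.1% and 28.2%. *Ccr9* was found in 7.76% and 0.435% of CD8 cells. *Klf2* was found in 72.8% and 57.4% of CD8 and 75.1% and 65.0% of CD4 cells, and *Klf3* in 26.1% and 18.3% and in 24.6% and 18.8%. All these shares are over the 4 libraries summed, which enter the classes in different proportions. The CD4 intervals of *S1pr4*, *Klf2* and *Klf3* overlap. In PDOX, with 79 of the 117 positive CD4 cells, the share of *S1pr4* was 27.8% in positive and 29.0% in negative cells. A negative CD8 cell held UMIs of 1.77 of the 6 members on average and a positive one of 1.25, and 9.83% and 17.4% of these cells held none.

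The levels by library also give the treated groups against the untreated one, for which no test exists. Among all CD8 T cells, *Ccr7* was 6.29, 4.32, 3.80 and 2.32, *Ccr9* 1.31, 0.880, 0.803 and 0.247 and *Klf2* 29.2, 18.6, 17.1 and 18.1. *S1pr1* was 3.44, 3.03, 3.93 and 2.07, *Klf3* 5.51, 3.44, 3.66 and 3.35 and *S1pr4* 2.55, 2.49, 2.39 and 3.80. The untreated library is highest for 4 of these genes, and PDOX is lowest for *Ccr7*, *Ccr9*, *S1pr1* and *Klf3* and highest for *S1pr4*. At or below 1/1.5 of the untreated level, among genes with 50 or more UMIs, were 2 of 6 members in anti-PD-L1, 4 in anti-OX40/CpG and 5 in PDOX, where 6.78%, 8.64% and 12.8% of genes were. They were *Klf2* and *Klf3* in each treated library, with *Ccr7* and *Ccr9* in anti-OX40/CpG and PDOX and *S1pr1* in PDOX. The lowest ratio was that of *Ccr9* in PDOX, at 0.188 (95% interval 0.108 to 0.314). With the UMIs of all genes as denominator the counts were 1, 4 and 2, beside 4.63%, 8.66% and 5.77% of genes. With thinning to 750 UMIs they were 2, 3 and 3, beside 5.56%, 7.93% and 11.6%, and in PDOX only 5 members then had enough UMIs. At a 2-fold limit the counts were 0, 0 and 2, beside 0.989%, 1.18% and 3.29%. With either the other denominator or thinning, 1 member was at least 1.5 times the untreated level in PDOX, beside 18.02% and 11.73% of genes.

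Since the share of *S100a4*-positive cells differs between the libraries, the same was counted in *S100a4*-negative CD8 cells. There 0, 1 and 3 of 6 members were at or below 1/1.5, beside 5.83%, 6.27% and 8.75% of genes. The 1 in anti-OX40/CpG was *Klf2* (0.633, interval 0.590 to 0.680), and the 3 in PDOX were *Ccr7* (0.537, 0.442 to 0.650), *S1pr1* (0.629, 0.489 to 0.807) and *Ccr9* (0.275, 0.154 to 0.469), named after their values were seen. With the UMIs of all genes as denominator the counts were 0, 1 and 2, beside 5.85%, 9.66% and 6.15% of genes, and with thinning 1, 2 and 2, beside 4.87%, 7.09% and 9.02%. In PDOX only 5 members had enough UMIs with thinning. These cells were not alike between libraries: the naive list summed to 40.8, 38.7, 37.6 and 28.4 in them and the effector and memory list to 42.0, 55.1, 48.8 and 82.8. The part of this in the PDOX values was not tested. The untreated *Klf2* level of 30.3 stood above the other libraries in these cells, whose ratios to it were 0.694, 0.633 and 0.702.

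Among all CD4 T cells, 5 members had enough UMIs. None was at or below 1/1.5 of the untreated level in anti-PD-L1 or anti-OX40/CpG, where 5.65% and 7.5% of genes were. In PDOX *Ccr7* (0.461, 0.361 to 0.590) and *S1pr1* (0.633, 0.467 to 0.865) were, beside 9.57% of genes, and *S1pr4* (1.86, 1.37 to 2.59) was at least 1.5 times the untreated level, beside 15.6%. With the UMIs of all genes as denominator 1 member was lower there, beside 6.28% of genes. With thinning, or at a 2-fold limit, 0 members were higher there, beside 16.2% and 5.87% of genes. In *S100a4*-negative CD4 cells 0 members were lower by that limit in each of the 3 treated libraries, beside 4.9%, 5.89% and 6.27% of genes. *Ccr7* there was at 0.938 (0.727 to 1.22) of the untreated level in PDOX, unlike in the *S100a4*-negative CD8 cells, where it was 0.537. That difference was not tested.

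Across the 20 profiles of 4 libraries and 5 classes, the genes whose log levels moved most like a member's were listed by Pearson's r among 4162 genes; profiles share libraries, and no test was made. *Ccr7* was nearest to *Junb* (0.899), *Fbl* (0.823) and *Phpt1* (0.803), *S1pr1* to *Etv3* (0.841), *Nsg2* (0.834) and *Cdkn1b* (0.834) and *S1pr4* to *Rac2* (0.886), *Mfng* (0.873) and *Nfatc3* (0.866). *Ccr9* was nearest to 5730508B09Rik (0.843), *Hspe1* (0.829) and Gm43698 (0.754), *Klf2* to *Macf1* (0.907), *Senp6* (0.895) and *Rbm4b* (0.881) and *Klf3* to *Peli1* (0.850), *Rrp15* (0.844) and *Mark3* (0.833). Between members r ran from −0.06 for *Ccr7* and *S1pr4* to 0.672 for *Ccr9* and *Klf3*; *Ccr7* and *S1pr1* had 0.647.

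Because 2 members encode factors of the KLF family, the members' promoters are shown with the core of the KLF binding motif. RefSeq promoters on GRCm38.p6, 250 bases before to 50 bases after the start, were at hand for 4 of 6 members and not for *Ccr7* and *S1pr1*. The motif searched was CACCC, or GGGTG on the other strand, and is in capitals. *Klf2* (chr8:72318812-72319111, plus strand) holds 1 match, *Klf3* (chr5:64803271-64803570, plus strand) 5, *Ccr9* (chr9:123766961-123767260, plus strand) 1 and *S1pr4* (chr10:81500088-81500387, minus strand) 1. Of all 32851 promoters, 57.5% hold at least 1, so a match is common and is a description only. The core of the FOXO motif, TGTTTAC or GTAAACA on the other strand, was found in 0 of the 4 and in 3.65% of all promoters.
Klf2: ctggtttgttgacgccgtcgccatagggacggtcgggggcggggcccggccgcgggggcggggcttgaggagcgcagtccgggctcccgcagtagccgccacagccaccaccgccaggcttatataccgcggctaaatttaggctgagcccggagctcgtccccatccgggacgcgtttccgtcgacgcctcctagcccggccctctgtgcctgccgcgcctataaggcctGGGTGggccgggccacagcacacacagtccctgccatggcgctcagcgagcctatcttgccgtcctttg
Klf3: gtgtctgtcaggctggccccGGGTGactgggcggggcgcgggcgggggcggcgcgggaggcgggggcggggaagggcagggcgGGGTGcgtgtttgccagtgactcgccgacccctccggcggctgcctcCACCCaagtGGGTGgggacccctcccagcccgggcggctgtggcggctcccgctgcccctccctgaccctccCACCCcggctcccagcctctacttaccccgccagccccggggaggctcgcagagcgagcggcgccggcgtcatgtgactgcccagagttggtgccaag
Ccr9: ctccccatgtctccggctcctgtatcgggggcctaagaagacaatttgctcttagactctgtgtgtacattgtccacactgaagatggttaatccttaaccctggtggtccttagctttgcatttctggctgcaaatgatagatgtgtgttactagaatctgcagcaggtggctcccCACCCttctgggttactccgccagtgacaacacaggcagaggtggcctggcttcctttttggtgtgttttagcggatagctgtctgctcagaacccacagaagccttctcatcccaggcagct
S1pr4: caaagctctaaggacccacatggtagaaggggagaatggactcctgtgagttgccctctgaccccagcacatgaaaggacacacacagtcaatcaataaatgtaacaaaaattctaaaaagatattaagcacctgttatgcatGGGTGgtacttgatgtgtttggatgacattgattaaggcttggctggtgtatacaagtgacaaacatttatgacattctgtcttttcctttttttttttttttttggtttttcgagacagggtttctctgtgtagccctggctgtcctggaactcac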

How the data were processed

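The values are UMI counts per gene and cell of 4 droplet libraries, as the authors deposited them, made with Cell Ranger on mm10 and not normalised; annotation release and cell calling settings are not given in the sources used here. Cells with 200 or more genes were kept. Totals and tests leave aside 13 genes of the mitochondrial genome, 102 of ribosomal proteins and 10 of hemoglobins. No doublet caller was run: T cells with both coreceptors, or with 2 or more B cell UMIs, fall outside the gates, and leaving out the top 5% of cells by UMIs was an alternative. UMIs were summed by library and class (10 or more cells) and tested with edgeR 4.0.16 (TMM, filterByExpr, quasi-likelihood, library as block, Benjamini-Hochberg at 0.05) in R 4.3.3, without gate genes and *S100a4*; DESeq2 1.42.0 was the other tool. Python 3.11.15, NumPy 2.4.6, SciPy 1.17.1 and pandas 2.3.3 gave levels, exact intervals and ratios, and matplotlib 3.10.9 the plots. The edgeR comparisons of classes were tested on simulated data; the interaction and DESeq2 were not. Treated and untreated libraries were compared by a 1.5-fold limit on genes with 50 or more UMIs.

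Named genes are the members, *S100a4*, genes among the 5 called genes of each list with the largest change (not all are printed), and for each member the 3 most similar genes by Pearson's r (200 or more UMIs, pseudocount 0.1). Lists cover lymph node entry and exit, gut homing, KLF genes, signalling, inflammatory homing receptors and cell type markers; members are not counted again in them. Members and lists were chosen with earlier results of these data known. Alternatives were DESeq2 size factors, DESeq2, no filter on low counts, all genes kept, at most 2900 genes a cell, the top 5% left out, a log1p gate on *Cd8a* or *Cd4*, thinning to 750 UMIs, no library block, 2 or more *S100a4* UMIs, each library left out, another denominator, 100 UMIs and a 2-fold limit. Profiles of 5 or more cells and T cells without myeloid UMIs were alternatives chosen after seeing the data.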

Additional observations from a re-analysis of the deposited data

Results flagged for a closer look

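The contrast of *S100a4*-positive with negative cells differed between CD4 and CD8 T cells, by the test of the difference itself (edgeR, 14 profiles, Benjamini-Hochberg adjusted p under 0.05), for 5 genes, none of them a member. In the same comparison the monocyte markers had a median of −3.03 and the B cell markers of −3.53, and *S100a4*-positive CD8 cells of the untreated and anti-PD-L1 libraries held monocyte sums of 218 and 92.3. *Ccl6* is also a gene of myeloid cells. With T cells that held myeloid UMIs left out, an alternative chosen after seeing the data, *Nkg7* (1.34) and *Igfbp4* (−2.98) kept their calls by edgeR, *Dapl1* (−1.004) lost its call, and *Ccl6* and *Ccl3* had too few UMIs for the test. That alternative has fewer profiles, without the untreated library in CD8 and the anti-PD-L1 library in CD4. The log2 contrast in CD4 minus that in CD8 was −9.07 (SE 1.13) for the chemokine gene *Ccl6*, whose UMIs in the profiles tested were 95 in *S100a4*-positive and 20 in negative CD8 cells and 3 and 55 in CD4 cells. UMIs here are sums over libraries, 4 for CD8 and 3 for CD4, while the contrast is fitted within libraries, so they do not give its size. It was −6.24 (SE 1.01) for the chemokine gene *Ccl3*, with 194 and 44 UMIs in CD8 and 7 and 33 in CD4 cells. *Nkg7*, a gene of cytotoxic granules, had 1.87 (SE 0.26) with 4972 and 5260 UMIs in CD8 and 1578 and 191 in CD4 cells. The naive T cell genes *Igfbp4* and *Dapl1* had −3.34 (SE 0.50) and −1.66 (SE 0.33); *Igfbp4* had 86 and 1324 UMIs in CD8 and 11 and 822 in CD4 cells, *Dapl1* 183 and 3089, and 23 and 592. DESeq2 called 2 genes for this difference, and no alternative with edgeR or DESeq2 called a member, of which 1, *Klf2*, had an unadjusted p under 0.05 in edgeR. Leaving out 1 library gave 3 to 21 genes by edgeR. The number also fell with thinning and with profiles of 5 or more cells, and rose with no filter on low counts, as given below.

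The 135 droplets with fewer than 200 genes, which no comparison used, held 12774 UMIs. Among them were 4 UMIs of *Klf2* and 6 of *Klf3*, above the floor of 3 UMIs set for such counts, which is what singled them out. *Ccr7* had 3, *S1pr1* 2, *S1pr4* 2 and *Ccr9* 0 UMIs there, and per 10000 UMIs *Klf2* stood at 3.13 (0.853 to 8.02) and *Klf3* at 4.70 (1.72 to 10.2).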

How the results depend on the processing

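Of 388 log2 fold changes of members under an alternative, 325 kept direction and side of the threshold, 41 lost the call, 13 gained one and 9 turned direction; of 184 counts, 133 were within 1.5 times the value reported and 51 were not; of 840 levels, 698 stayed within the interval of the value reported and 142 left it, 72 of these with the UMIs of all genes as denominator and 47 with thinning. The cause of these changes was not tested, except that thinning leaves fewer UMIs and a left-out library fewer profiles. Thinning, and leaving out T cells with myeloid UMIs, also took libraries with under 10 positive cells out of the *S100a4* tests. These were the untreated library in CD8 and the anti-PD-L1 library in CD4. DESeq2 called 499 genes for *S100a4* in CD8, 135 in CD4, 158 in CD8 against CD4, 422 in B against T and 2 for the difference between lineages, with 1 member in CD4, 1 in CD8 against CD4 and 0 in B against T. Thinning gave 277, 0, 144, 524 and 0 genes, with 2, 0, 1 and 0 members in the first 4. Without T cells that held myeloid UMIs there were 549 in CD8 and 195 in CD4. With no library block, 166 genes and 1 member were called in CD8 against CD4 and 1 member in B against T. No filter on low counts gave 4 members in B against T and 37 genes for the difference between lineages, where profiles of 5 or more cells gave 1. Members at or below 1/1.5 of untreated numbered 1 (CD8, anti-PD-L1), 2 (CD8, PDOX) and 1 (CD4, PDOX) with all genes as denominator, 3 (CD8, PDOX), 1 and 2 (*S100a4*-negative CD8, anti-PD-L1 and anti-OX40/CpG) with thinning, and at a 2-fold limit 0, 0 and 2 (CD8), 1 (CD4, PDOX), 0 and 1 (*S100a4*-negative CD8, anti-OX40/CpG and PDOX). At the 2-fold limit 3.54% of genes were lower in CD4 cells of PDOX. In *S100a4*-negative CD8 cells of anti-OX40/CpG and PDOX it was 0.847% and 1.65%. Leaving out 1 library gave 505 to 1150 genes and 4 to 6 members in CD8, 10 to 429 and 0 to 3 in CD4, 163 to 439 and 1 to 4 in CD8 against CD4, 487 to 781 and 0 to 4 in B against T, and 3 to 21 genes and 0 members for the difference between lineages. Directions that turned, none of them called, were *Klf2* in B against T (−0.21 with no filter on low counts, −0.13 without anti-PD-L1, −0.00208 without PDOX, −0.16 with profiles of 5 or more cells; −0.13 to 0.26 over the libraries left out) and, for the difference between lineages, *Ccr9* by DESeq2 (1.65), *S1pr4* with thinning (−0.45) and *Ccr7* without anti-PD-L1 (−0.03), without anti-OX40/CpG (−0.12), and without myeloid UMIs (−0.053), with −0.12 to 1.21 over the libraries left out. *Ccr9* rests on the fewest UMIs, with 8 UMIs in positive CD8, 6 in negative CD4 and 2 in B cells.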

Other observations

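T cells without UMIs of *Cd4*, *Cd8a* and *Cd8b1* entered no test. Of these 1611 cells, 260 held *S100a4* UMIs (16.1%). In these positive cells *Ccr7* was at 0.713 against 5.94 per 10000 in the negative ones, a ratio of 0.120 (95% interval 0.0852 to 0.164), and *S1pr1* at 1.76 against 4.18, a ratio of 0.422 (0.338 to 0.521). *S1pr4* was at 3.06 against 2.53, a ratio of 1.21 (1.01 to 1.45), below 1 in the untreated and anti-PD-L1 libraries (0.434 and 0.665) and above it in the anti-OX40/CpG and PDOX libraries (1.49 and 1.43). *Klf2* was at 13.1 against 21.3 (ratio 0.613, 0.565 to 0.663) and *Klf3* at 2.81 against 4.00 (0.704, 0.589 to 0.837). *Ccr9* had 6 and 21 UMIs there, or 0.107 and 0.116 per 10000, near the 0.0939 (0.0194 to 0.274) of the myeloid background, so no comparison is made for it. The monocyte list summed to 180 in the positive and 9.36 in the negative cells; its part in these values was not tested, and the ratios were not tested over libraries.

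The data are 1 library a group, so treatment, mouse and library cannot be told apart. The untreated library holds 12 and 9 *S100a4*-positive CD8 and CD4 T cells, of which 8 and 6 hold myeloid UMIs. Of its negative cells, 152 of 307 CD8 and 43 of 93 CD4 cells hold them. Positive cells were deeper than negative ones, and *S100a4* UMIs are found more readily in deeper cells. Intervals cover counting error only. Surface protein and cells of lymph nodes, gut and tumour were not analysed here.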
